A study of Mus musculus with 8 samples.

Results

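B16 cells sampled at 8 h, whatever they had been treated with, were set against B16 cells sampled earlier, to ask which genes followed time. The members are all 8 of the 8 arrays of the series and were placed by the time points in their labels, with no measured value used. The 8 h arm held 4 arrays, 2 of cells given SEMA3E for 8 h and 2 of cells given cytochalasin D for 8 h. The earlier arm held 4 arrays, 2 of cells given SEMA3E for 2 h and 2 of non-targeted control cells labelled 0 h. The 2 arrays of each group are biological replicates per the labels. B16 is a mouse melanoma cell line that makes pigment, and all groups grew in the same high-glucose medium with fetal bovine serum. SEMA3E is a secreted guidance protein whose receptor is plexin D1, and cytochalasin D is a fungal compound that caps actin filaments and stops their growth. No array of untreated cells at 8 h was analysed here, so time in culture cannot be told apart from whatever the 2 treatments share. The file headers put the 8 arrays on a single slide with a single scan, the 4 of the 8 h arm in its second row and the 4 earlier ones in its first row. Time and row on the slide therefore cannot be told apart either.

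Cells kept in serum-containing medium can change with hours in the dish by several known routes. Serum or fresh medium induces immediate early genes such as Fos, Egr1 and Ier2 within the first hour and can set the phase of the circadian clock, whose genes then run through their daily cycle. Consumption of nutrients engages the amino acid response through ATF4, and crowding of the cells changes the output of the YAP and TAZ coactivators and of the cell cycle. Actin assembly feeds back on transcription through MRTF and its partner SRF, the route through which cytochalasin D is best known to act on genes.

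Each array measured labelled copies of the cells' RNA in 1 colour, and values are log2 of the background-corrected intensity minus the 75th percentile of the probes detected on all arrays. A value of 0 is thus the level of that percentile, and a difference of 1 is a factor of 2. After a filter on dim probes, 18073 genes or transcripts were tested, of which 12022 carried a proper gene symbol. The share of spots well above background ran from 37.8% to 48.2% by array, and the 75th percentile of the raw signal ran from 66.8 to 154 in the 8 h arm and from 59.3 to 132 in the earlier arm. The melanocyte identity on the label was borne out by the defining markers. All 7 of Mlana, Pmel, Dct, Tyr, Tyrp1, Mitf and Sox10 were above background on all 8 arrays, and their summed level, on the log2 scale, lay between 6.52 and 6.74 at 8 h and between 6.51 and 7.10 earlier. Of the markers of other cell types, 4 of 7 fibroblast, 2 of 8 leukocyte, 4 of 6 endothelial, 3 of 6 keratinocyte and 4 of 6 erythroid genes were above background on no array. Their summed levels lay from -3.15 to -2.64 at 8 h and -3.06 to -2.67 earlier for fibroblasts, from -3.06 to -2.43 and -2.98 to -2.60 for leukocytes, and from -4.27 to -3.23 and -4.45 to -3.45 for endothelial cells, with 8 h first in each pair. For keratinocytes they lay from -2.69 to -2.40 at 8 h and -2.65 to -2.0 earlier, and for erythroid cells from -7.35 to -5.02 at 8 h and -7.11 to -6.13 earlier. Other members of these lists were above background on all 8 arrays. They were 2 of 7 fibroblast genes (Col1a1 and Col1a2) and 3 of 8 leukocyte genes (Cd68, Csf1r and Cd3e). So were 2 of 6 endothelial genes (Pecam1 and Vwf), 1 of 6 keratinocyte genes (Trp63) and 0 of 6 erythroid genes. Any part that other cell types had in the results was not tested.

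One array of the earlier arm, control replicate 2, lay with the 8 h arrays. Its profile had r = 0.993 with cytochalasin D replicate 1, the highest among the 28 pairs of arrays, against r = 0.974 with its own replicate. These are correlations over genes, which are no independent replicates. In 13587 of the 18073 genes (75.2%) its value was nearer to the mean of the 8 h arm than to the mean of the other 3 earlier arrays. For the other 7 arrays the same share, counted toward the opposite arm, ran from 33.8% to 53.3%. Of the 8 arrays, 6 had their nearest array within their own arm, and 3 had their own replicate as the nearest. The labels place this array in the control group, and each result is given with it and, where that changes a call, without it. Why it lay there was not tested.

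**Figure D1:**
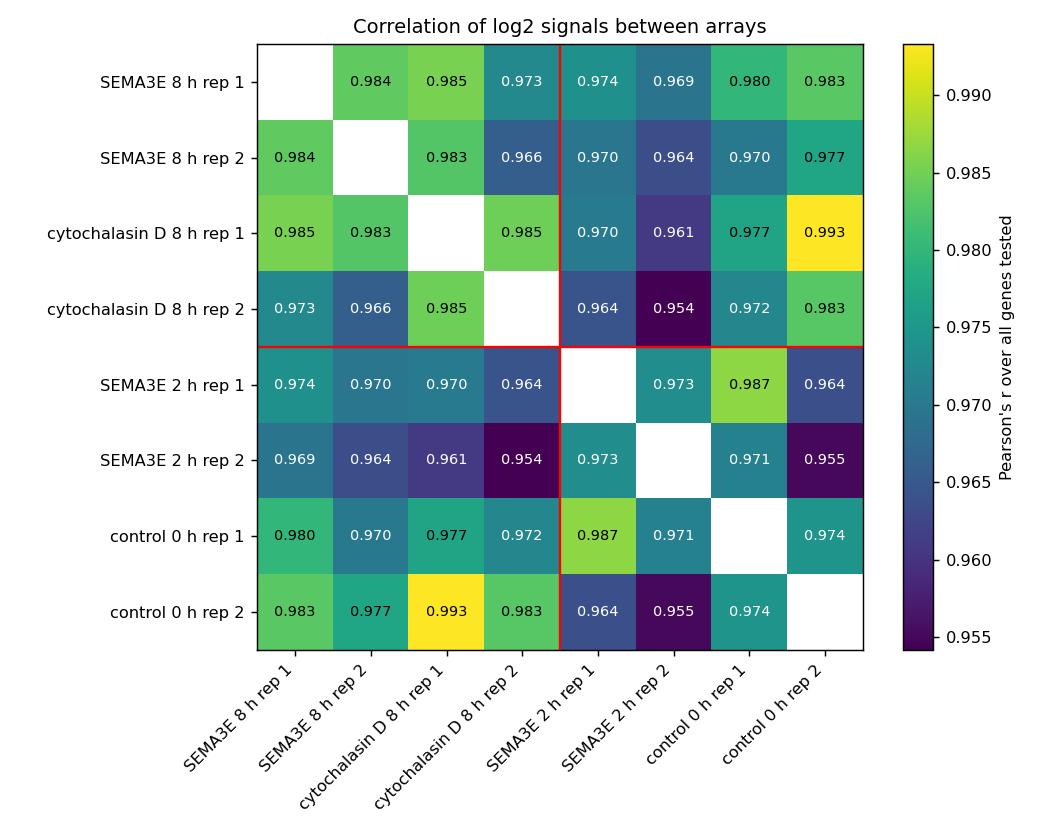
Pearson's r between the log2 signals of each pair of the 8 arrays over the 18073 genes tested, with the 8 h arrays first and red lines between the arms. Control replicate 2, the last row, has r = 0.993 with cytochalasin D replicate 1, against r = 0.974 with control replicate 1.

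With all 8 arrays, no gene was called higher or lower at 8 h. By limma's moderated test with Benjamini-Hochberg adjustment, 0 of 18073 genes (0%) passed at an adjusted p of 0.05, and the smallest adjusted p was 0.737. At an unadjusted p of 0.05, 947 genes (5.24%) passed, 632 of them higher at 8 h (3.5%) and 315 lower (1.74%). The median difference over all genes was 0.06, and 10290 genes (56.9%) lay above 0. That lean toward higher values depended on the scaling. With quantile normalization 412 genes were higher and 547 lower at the unadjusted threshold, with normexp background correction 321 and 463, with both together 426 and 931, with the 75th percentile of all probes 442 and 555, and with the median of all probes 85 and 553. Differences had a median standard error of 0.27. Each arm pools 2 groups, so this error holds the difference between those groups as well as that between replicates. When changes of known size were simulated together at this spread, limma called 7 of the 50 genes changed 2-fold and 41 of the 50 changed 4-fold. It called 49 of the 50 changed 8-fold and 50 of the 50 changed 16-fold. The simulated arrays varied independently, with none lying with the other arm as control replicate 2 did. The counts for larger changes therefore do not give what the real arrays could show. Single genes that differed by a factor of 2 were mostly below what these arrays could show.

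A stricter description than the mean asks that all 4 arrays of one arm lie above all 4 of the other. The arms did not overlap in 340 genes (1.88%), 203 with the 8 h arm higher (1.12%) and 137 with it lower (0.758%). Of the 773 genes whose means differed by over 2-fold, 38 had arms that did not overlap. In 125 of the 340 genes (36.8%) the SEMA3E 2 h mean lay between the control mean and the means of both 8 h groups, as it did in 1585 of all genes (8.77%). That share is a description, since a gene with separate arms already has the 2 h and control arrays on 1 side.

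Among genes with separate arms and a bright arm above background, those with the smallest p or the widest gap higher at 8 h numbered 14 and included Olfr635, Hoxb6, Speer1, Cep295nl, Kcnh2, Wfdc3, Flrt1, Numbl, Psors1c2, Aldh3b1, Ube2l6, Hoxb9 and Ccdc159. All 14 had an adjusted p of 0.737, so none is called. Hoxb6, a homeodomain transcription factor of body-axis patterning, read -2.72 and -2.58 with SEMA3E at 8 h, -2.49 and -2.53 with cytochalasin D, -3.61 and -3.73 with SEMA3E at 2 h, and -4.10 and -2.91 in control. The 4 values at 8 h lay within a narrow band, and the earlier array nearest to them was control replicate 2. The difference was 1.01 ± 0.26 (SE, 4 arrays against 4), or 2.01-fold, with an unadjusted p of 0.00329 by limma. It was 0.47 with normexp background correction and 0.41 with normexp and quantile normalization. Its neighbour in the Hoxb cluster, Hoxb9, read -1.36, -2.68, -2.92 and -2.78 at 8 h, in the same order of arrays, and -3.57, -3.36, -3.23 and -3.37 earlier, a difference of 0.95 ± 0.34. Here SEMA3E replicate 1 stood above the other 3 arrays at 8 h, and all earlier arrays lay close together.

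Several of the genes that were higher at 8 h were dim. Olfr635, an odorant receptor gene, read -7.55, -6.86, -7.49 and -7.25 at 8 h and -8.26, -8.23, -8.24 and -8.81 earlier, with 1 of the 4 earlier arrays well above background. Its difference was 1.1 ± 0.23 with the main scaling and 0.00 with normexp background correction. Speer1 and Cep295nl were above background on 2 of the 4 earlier arrays, Flrt1 on 2, and Kcnh2 and Wfdc3 on 3. For Wfdc3, the SEMA3E 2 h arrays read -6.72 and -8.12 and the control arrays -6.61 and -5.75, against values from -5.60 to -4.92 at 8 h. The bright arm was thus measured on every array, and the dim arm near the limit of detection.

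Genes above background on all 8 arrays included Ube2l6, the conjugating enzyme for the ubiquitin-like protein ISG15, which differed by 0.99 ± 0.30, with arms that nearly touched and a second probe at -0.01. Aldh3b1, an aldehyde dehydrogenase, differed by 0.66 ± 0.20 and Numbl, a relative of the Notch inhibitor Numb, by 0.72 ± 0.21. None of these 3 genes had an unadjusted p under 0.05 between the 8 h treatments.

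In the other direction, the corresponding genes were Car8, Prkaa2, Pbrm1, Flrt3, Celf2, Zfp518a, Zfp799, Zdhhc20, Tmem144, Cald1, L3mbtl3, Mideas and Slc26a7. All 13 had an adjusted p of 0.737. Celf2, an RNA-binding regulator of splicing and mRNA stability and the brightest of them, read 0.50 and 0.47 with SEMA3E at 8 h, 0.19 and 0.04 with cytochalasin D, 1.84 and 2.18 with SEMA3E at 2 h, and 1.89 and 0.70 in control. All 8 h values were below all earlier ones, and control replicate 2 lay nearer to the 8 h arm than to the other earlier arrays. Its difference was -1.35 ± 0.32, with the earlier arm 2.55-fold higher, and 2 other probes gave -0.93 and -0.36.

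Prkaa2, which encodes a catalytic subunit of the energy sensor AMPK, read -5.11, -5.42, -5.52 and -5.69 at 8 h and -3.60, -3.92, -4.13 and -4.88 earlier, a difference of -1.30 ± 0.28. Pbrm1, a subunit of the PBAF chromatin remodelling complex, read -4.36, -4.74, -4.42 and -4.24 at 8 h and -3.03, -3.37, -2.53 and -3.82 earlier, a difference of -1.25 ± 0.28. In both genes the last value, control replicate 2, was the earlier one closest to the 8 h arm. The other 2 probes of Pbrm1 differed by -0.53 and 0.42, so the probes of that gene did not share a direction. Flrt3, a leucine-rich repeat membrane protein that takes part in axon guidance and cell adhesion, read -2.73, -2.41, -2.53 and -2.72 at 8 h and -1.03, -1.48, -1.10 and -2.16 earlier. Its difference was -1.16 ± 0.27, while its 2 other probes gave 0.11 and 0.12. The size of these differences moved with the processing. With normexp 18 of the 27 genes named by p or gap differed by over 1.5 times less than with the main scaling, and with the median of all probes 13 did so and 1 by over 1.5 times more. Of the 27 genes, 9 had other tested probes, and in 5 of these every other probe had the sign of the one used.

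**Figure D2:**
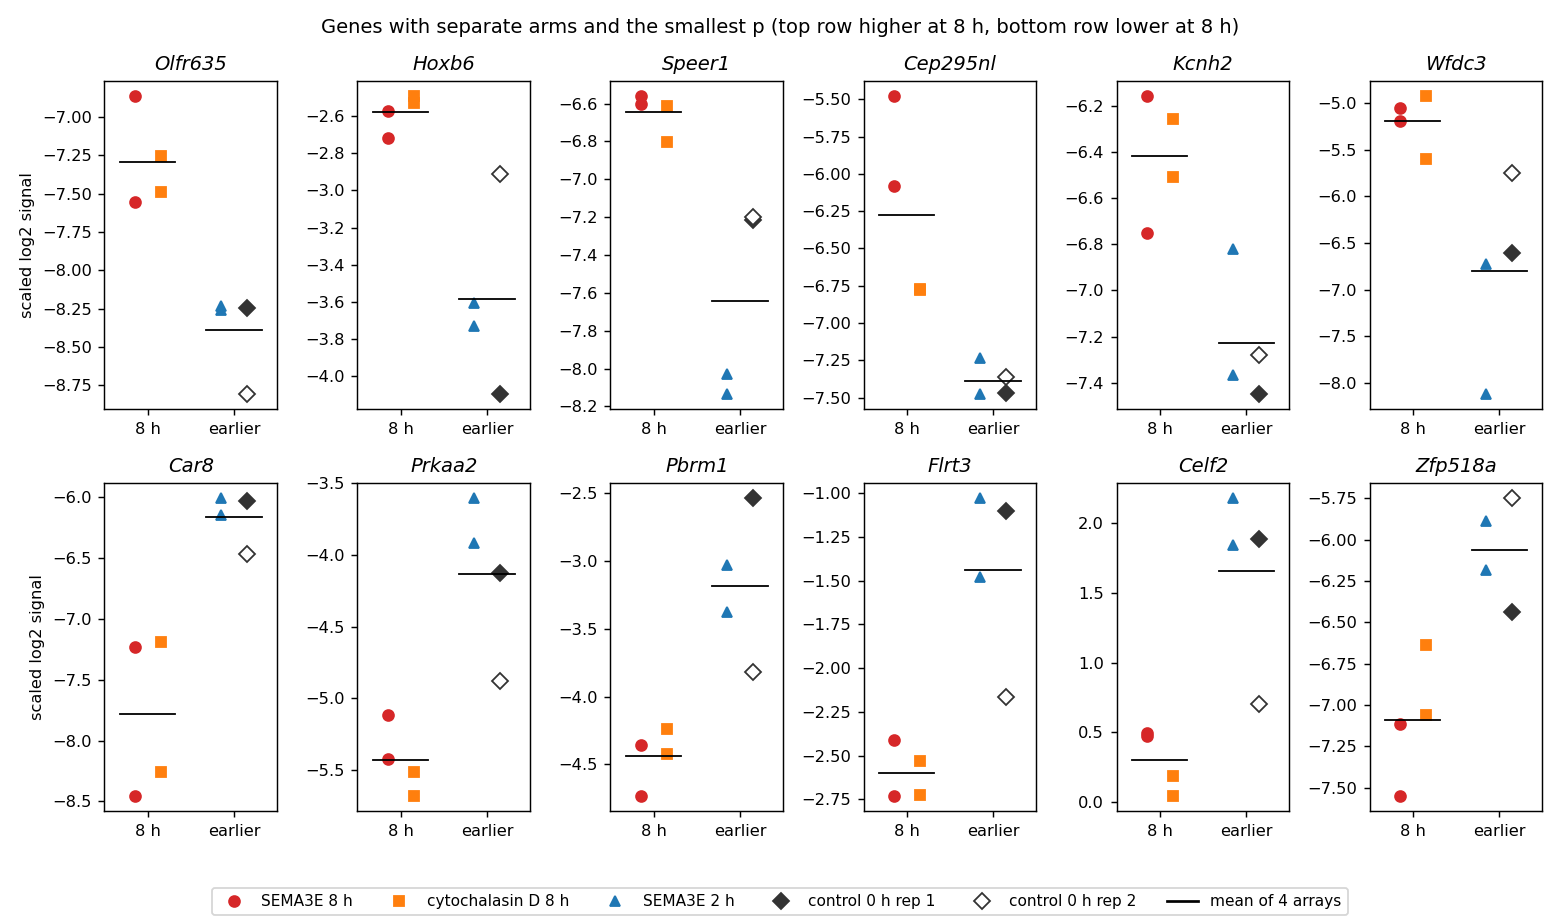
Scaled log2 signal on each of the 8 arrays for the 6 genes with the smallest p in each direction among genes with separate arms, with the 8 h arm left of the earlier arm and a line at the mean of 4 arrays. The open diamond is control replicate 2, which is the earlier array nearest to the 8 h arm in Hoxb6, Speer1, Wfdc3, Car8, Prkaa2, Pbrm1, Flrt3 and Celf2, and the farthest from it in Olfr635 and Zfp518a.

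Car8, a catalytically inactive relative of the carbonic anhydrases, had the largest gap between arms of the 27 genes. It read -7.23, -8.46, -8.26 and -7.19 at 8 h, where 2 of 4 arrays were above background, and -6.01, -6.15, -6.03 and -6.47 earlier. The difference was -1.62 ± 0.32, with an unadjusted p of 0.000653, and its other probe gave -0.06. With normexp the difference was -0.48, and with normexp and quantile normalization -0.35. Cald1, caldesmon, which binds actin and myosin, differed by -0.82 ± 0.23 with a second probe at -1.05. Zdhhc20, a palmitoyltransferase, differed by -0.89 ± 0.22, and the chromatin proteins L3mbtl3 and Mideas by -0.78 ± 0.22 and -0.74 ± 0.21. A second probe of Mideas gave 0.32.

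Whether a difference by time held with either treatment was read from the 4 group means. For Celf2, SEMA3E at 8 h and cytochalasin D differed from SEMA3E at 2 h by -1.52 and -1.90 and from control by -0.81 and -1.18. For Hoxb6 the same 4 differences were 1.02 and 1.16 against SEMA3E at 2 h and 0.86 and 0.99 against control. For Flrt3 they were -1.32 and -1.38 against SEMA3E at 2 h and -0.94 and -1.0 against control. Each of these comparisons shares its groups with another, so that the 4 values of a gene are not independent. Of the 27 genes, 1 had an unadjusted p under 0.05 between SEMA3E and cytochalasin D at 8 h, where 11% of all genes did. That gene was Cep295nl, at 0.99 ± 0.29 higher with SEMA3E. Between SEMA3E at 2 h and control 2 of the 27 did, Speer1 and Wfdc3, where 9.47% of all genes did. These shares describe how the genes were chosen, since a gene whose arms vary little has a small p.

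Over all genes, the groups inside an arm differed about as often as the arms did or more often. In the fit of 4 group means, at an unadjusted p of 0.05, 1986 genes (11%) separated SEMA3E from cytochalasin D at 8 h, 1712 (9.47%) separated SEMA3E at 2 h from control, and 1492 separated the arms. After adjustment 1 gene (0.00553%) passed limma's test in the comparison at 8 h and 0 in that of the earlier groups, where 416 passed without SEMA3E 2 h replicate 1 and 3437 with normexp background correction. The called gene was Catsperg2, which encodes a subunit of the sperm calcium channel complex and was chosen after its values were seen. It read -6.76 and -6.61 with SEMA3E and -9.92 and -9.79 with cytochalasin D, where it was not well above background, and it was at least 4.39-fold higher with SEMA3E (limma, adjusted p 0.0466). It was above background on no earlier array and entered the test only through the SEMA3E 8 h arrays, so the p sets them against arrays at the limit of detection. No gene was called in this comparison when any 1 array was left out (limma). Where an array of the compared groups is left out, here and for the 416 genes above, the lone array of its group is assumed to vary like the other groups. Catsperg2 was also the 1 gene called between SEMA3E at 8 h and control (adjusted p 0.0157, with the same limit), while the other 3 pairings of an 8 h group with an earlier group gave 0 calls and 441, 2099 and 3158 genes at an unadjusted p of 0.05 for cytochalasin D against control, SEMA3E at 8 h against 2 h, and cytochalasin D against SEMA3E at 2 h. Differences that share no array also moved little together. Across genes, SEMA3E at 8 h minus SEMA3E at 2 h correlated at 0.198 with cytochalasin D minus control, and SEMA3E at 8 h minus control correlated at -0.143 with cytochalasin D minus SEMA3E at 2 h.

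The count of called genes turned on 1 array. Without control replicate 2, 215 genes (1.19%) passed limma's test at an adjusted p of 0.05, of which 153 were higher at 8 h (0.847%) and 62 lower (0.343%). Leaving out any of the other 7 arrays gave 0 called genes, with between 392 and 1212 genes at an unadjusted p of 0.05, against 3336 without control replicate 2. In all 215 genes the omitted array was nearer to the mean of the 8 h arm than to the other earlier arrays, which the choice of genes called only without it largely fixes and which is given as a description. It lay inside the range of the 8 h arrays in 81 of them and past that range, away from the other earlier arrays, in 123. In 42 of the 215 genes the lower side was not above background on every array, and in 9 on none. The 215 genes thus set the 4 arrays at 8 h and 1 control array on one side and 3 earlier arrays on the other. This fit was singled out because the values of control replicate 2 lay with the 8 h arm. That choice itself widens the differences and narrows the spread. Adjusted p-values without this array, here and below, therefore describe the values and are no test of a change with time.

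**Figure D3:**
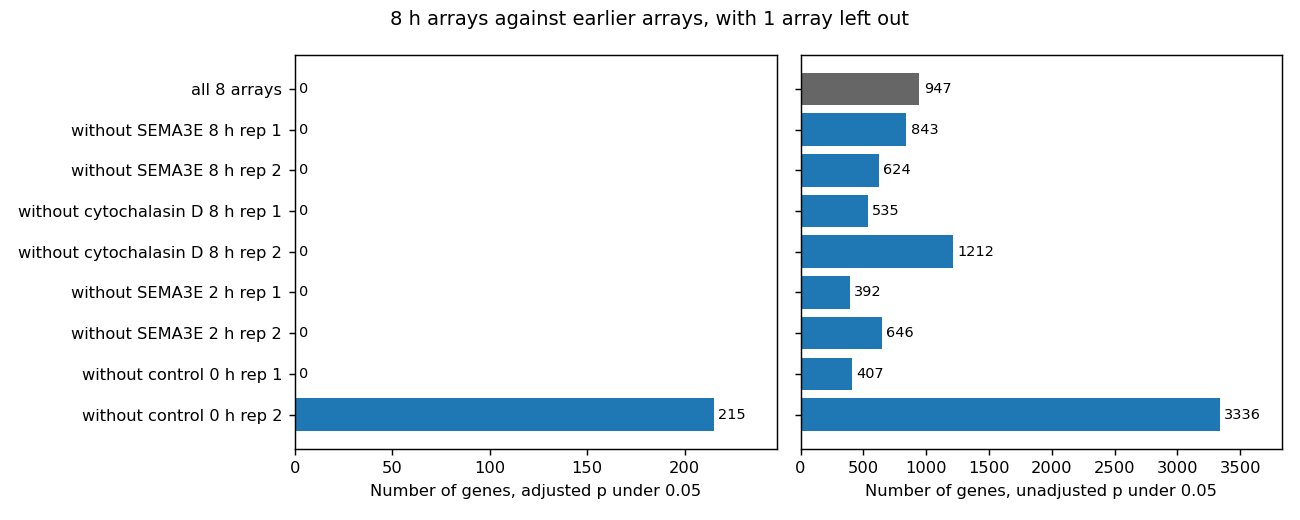
Number of genes past an adjusted p of 0.05 (left) and an unadjusted p of 0.05 (right) in the comparison of the 8 h arm with the earlier arm, with all 8 arrays and with each array left out in turn. Called genes appear only without control replicate 2, where 215 pass.

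The genes of this set were chosen for naming after their values were seen, as the 12 with the smallest p in each direction among proper symbols above background on all 4 arrays of the higher arm. Of the 27 genes named above, 6 were among the 215, Hoxb6, Prkaa2, Pbrm1, Flrt3, Celf2 and Cald1. Without control replicate 2, those higher at 8 h included Lgals8, a galectin that binds sugars on damaged endosomes, Sephs2, which makes the selenium donor for selenoproteins, Plod1, a lysyl hydroxylase of collagen, the fatty acid desaturase Fads1, the phosphatidylserine synthase Ptdss2 and the zinc finger genes Zfp219, Zfp384 and Zbtb49. Of these, Sephs2, Zfp219 and Zbtb49 were above background on 1 of the 3 earlier arrays left. Lgals8 read -0.35, -0.18, -0.20 and 0.62 at 8 h, against -2.57 and -2.32 with SEMA3E at 2 h and -2.83 and 0.00 in control. The 3 remaining earlier arrays lay over 2 log2 units below the 8 h mean, and control replicate 2 lay among the 8 h values. The difference was 2.55 ± 0.28 without that array (adjusted p 0.0293) and 1.90 ± 0.58 with it (adjusted p 0.737). Plod1 differed by 2.40 ± 0.29 without the array and 1.64 ± 0.67 with it, and its second probe by 1.78 with all arrays. Fads1 differed by 1.83 ± 0.22 and 1.23 ± 0.53, and Ptdss2 by 2.38 ± 0.30 and 1.60 ± 0.68, without and with the array. With normexp and all arrays, Lgals8 differed by 1.95, Fads1 by 1.01, Ptdss2 by 0.90 and Plod1 by 0.84. Sephs2 then differed by 0.36 (2.20 with the main scaling), Zfp219 by 0.53 (2.18), Zfp384 by 0.34 (1.18) and Zbtb49 by 0.09 (1.42).

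Those lower at 8 h in the same fit included Lrp6, a coreceptor for Wnt ligands, F10, which encodes a coagulation factor, Sart1, a splicing factor of the tri-snRNP, Tcof1, treacle, which serves transcription of ribosomal DNA, Nr3c1, the glucocorticoid receptor, Papola, a poly(A) polymerase, and Prkaa2, Flrt3 and Celf2. Lrp6 read -1.57, -1.71, -1.73 and -1.88 at 8 h, against 0.60 and 0.23 with SEMA3E at 2 h and -0.01 and -1.92 in control. Its difference was -2.0 ± 0.21 without control replicate 2 (adjusted p 0.0293) and -1.45 ± 0.48 with it, while another probe gave 0.65. Nr3c1 read -1.27, -1.49, -1.44 and -1.48 at 8 h, against -0.10 and -0.09 with SEMA3E at 2 h and -0.43 and -1.27 in control, a difference of -1.21 ± 0.18 without the array and -0.95 ± 0.28 with it. A second probe of Nr3c1 differed by -0.32 with all arrays. F10 read from -0.59 to -0.40 at 8 h, against 2.16 and 1.25 with SEMA3E at 2 h and 1.35 and -1.71 in control, so that control replicate 2 lay past the 8 h arrays, away from the other earlier ones. Tcof1 differed by -1.45 ± 0.19 without the array and -1.12 ± 0.32 with it, and a second probe by -0.60.

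**Figure D4:**
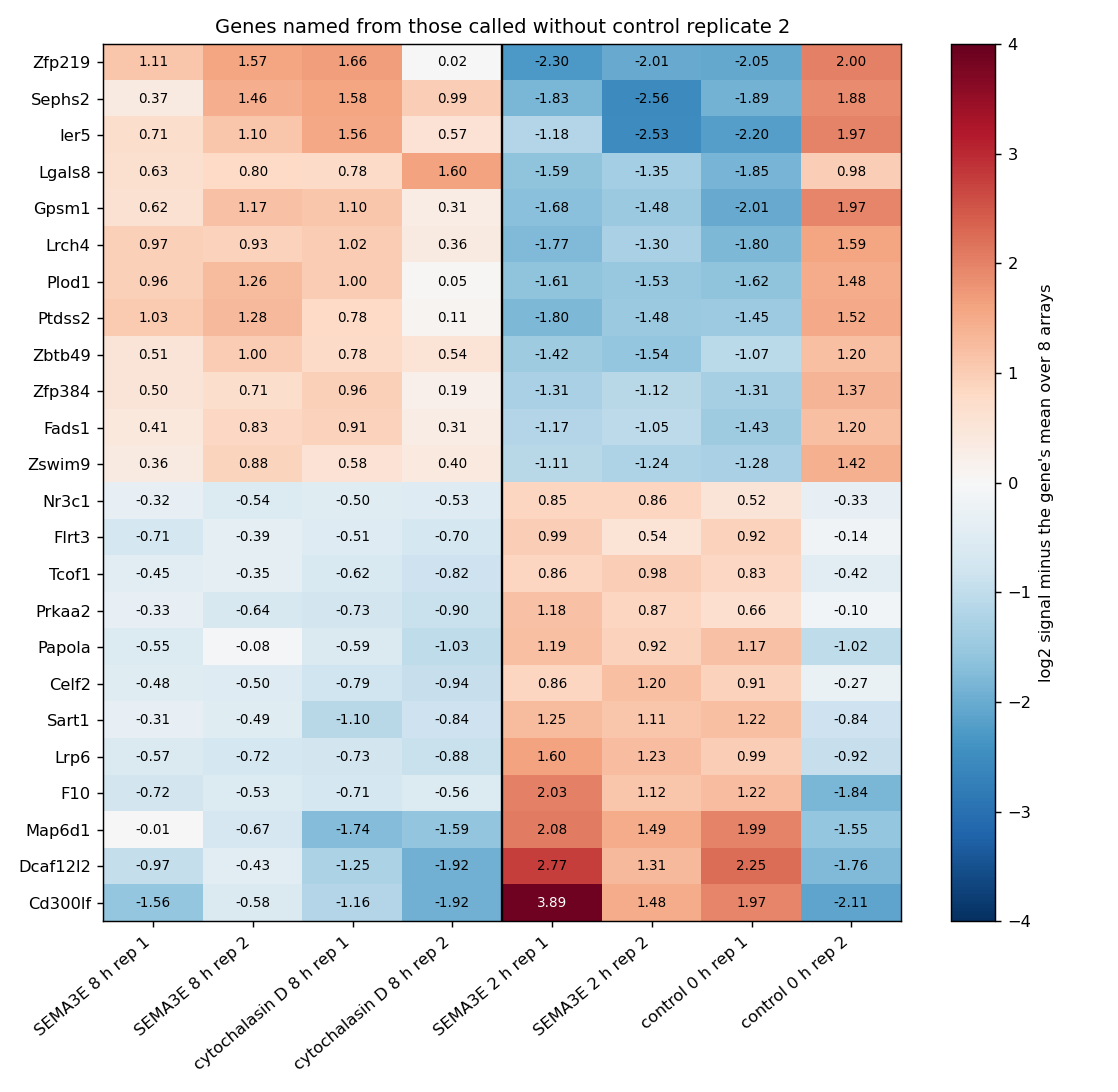
Log2 signal minus the gene's mean over the 8 arrays for 24 genes named from the 215 that were called without control replicate 2, with the 4 arrays at 8 h left of the line and the 4 earlier arrays right of it. The last column, control replicate 2, has the sign of the 8 h arrays in all 24 genes, as their choice largely fixes.

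The gene lists for the routes by which cells change in culture held 602 tested genes. None was called with all arrays (limma), 25 (4.15%) had an unadjusted p under 0.05, where 5.24% of all genes did, and in 11 (1.83%) the arms did not overlap, where 1.88% of all genes did. Without control replicate 2, 6 (0.997%) were called, Ier2, Ier5, Myh9, Dlgap5, Shmt2 and H1f0, where 1.19% of all genes were. The lists as a whole therefore stood near the background on each count. List medians below are to be read against the median of all genes, 0.06, which moved to -0.31 with the median of all probes as the scaling.

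Immediate early genes had the highest list median. The list had 21 tested genes, 16 of them above 0, and a median of 0.47. Of the 21, 3 had an unadjusted p under 0.05 (limma), where 5.24% of all genes did. Relative to the median of all genes the list lay between 0.32 and 0.41 higher under the scalings tried, and between 0.14 and 0.61 higher with 1 array left out. The list's median was 0.20 without SEMA3E 8 h replicate 1 and 0.26 without SEMA3E 2 h replicate 1. Ier2, a short-lived nuclear regulator, read -4.12 and -4.32 with SEMA3E at 8 h, -4.41 and -4.05 with cytochalasin D, -9.20 and -6.50 with SEMA3E at 2 h, and -7.91 and -4.33 in control. The 8 h arrays and control replicate 2 lay together, and the other 3 earlier arrays lay far below. The difference was 2.76 ± 0.86 with all arrays (limma, adjusted p 0.737) and 3.64 ± 0.54 without control replicate 2 (limma, adjusted p 0.0362), where 2 of the 3 earlier arrays left were above background. With normexp its difference was 0.73. With the median of all probes as the scaling, Ier2 was also the 1 gene called higher with all arrays. Its relative Ier5 read from -4.96 to -3.96 at 8 h and -6.70, -8.05, -7.72 and -3.55 earlier, with the first 2 of these from SEMA3E at 2 h. Without control replicate 2 it was called higher (adjusted p 0.0293), but only 1 of the 3 earlier arrays left was above background, so the fitted 2.95 ± 0.38 is set against arrays mostly at the limit of detection. Its difference with all arrays was 1.97 ± 0.86, 0.36 with normexp background correction, and 0.15 on its other probe. Junb, a subunit of the AP-1 factor, differed by 1.46 ± 0.54 and was above background on 3 of the 4 arrays at 8 h and 1 of the 4 earlier ones, and its difference with normexp was 0.0461. By array, the median deviation of the list from each gene's own mean was 0.62 and -0.11 with SEMA3E at 8 h, 0.11 and 0.43 with cytochalasin D, -0.44 and -0.22 with SEMA3E at 2 h, and -0.13 and 0.13 in control, so the arms overlapped.

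No gene of the circadian clock list was called. Of 22 genes, 17 were tested, 12 lay above 0 and the median was 0.10. Of the 17, 0 had an unadjusted p under 0.05 (limma), where 5.24% of all genes did. No gene had separate arms, where 1.88% of all genes did. With 17 genes, counts of 0 cannot tell a clock without a difference from the background. Per1, a repressor that responds to serum and hormones, read 1.60, 0.97, 1.48 and 2.08 at 8 h and 1.26, -1.46, 1.1 and 1.28 earlier. Only SEMA3E 2 h replicate 2 lay apart from the rest, and the difference of 0.99 ± 0.59 was 0.32 without that array. Bhlhe41, a transcriptional repressor of the clock, differed by 0.54 ± 0.38. Per2 and 4 other clock genes had no probe that passed the filter.

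Genes of the unfolded protein and ATF4 responses and the aminoacyl-tRNA synthetases, many of which ATF4 induces, leaned upward without a call. In the first list 24 of 33 genes lay above 0 with a median of 0.20, and in the second 16 of 20 with a median of 0.16. Relative to all genes the first lay from 0.07 to 0.21 higher and the second from 0.02 to 0.28 higher, over the scalings tried. The lean of the first list rested on SEMA3E 8 h replicate 1, whose median deviation was 0.41, against -0.08, -0.06 and 0.01 on the other 8 h arrays. Without that array the list's median was 0.0665, level with the 0.067 of all genes. The second list's median stayed between 0.15 and 0.26 with 1 array left out. Shmt2, the mitochondrial serine hydroxymethyltransferase, read 0.51, 0.61, 0.72 and 0.58 at 8 h, against -0.49 and -1.20 with SEMA3E at 2 h and -0.89 and 0.76 in control. Control replicate 2 was above all 8 h values. The difference was 1.05 ± 0.38 with all arrays and 1.46 ± 0.22 without that array (limma, adjusted p 0.0362). Vars, the valine enzyme, showed the same order, with -0.15, -0.06, -0.16 and -0.99 at 8 h, against -1.55 and -2.54 with SEMA3E at 2 h and -1.86 and 0.16 in control. Its difference was 1.11 ± 0.52, or 1.64 ± 0.32 without control replicate 2 (adjusted p 0.0575). Hyou1, a chaperone of the endoplasmic reticulum, read from -6.67 to -5.23 at 8 h, and its control values were -10.20 and -4.59, the lowest and the highest of the 8 arrays, with 1 of the 4 earlier arrays above background.

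Ribosomal protein genes and genes of oxidative phosphorylation lay lower at 8 h in the means, and the SEMA3E 2 h arrays were the highest of the 8 in both lists. Of 51 ribosomal protein genes, 4 lay above 0 with a median of -0.20, and of 46 oxidative phosphorylation genes 7 did with a median of -0.24. No gene of either list had an unadjusted p under 0.05 (limma) or separate arms, against 5.24% and 1.88% of all genes. The median difference of ribosomal protein genes was -0.47 for SEMA3E at 8 h and -0.44 for cytochalasin D when set against SEMA3E at 2 h, and 0.05 and 0.08 when set against control. By array, the list's median deviation was -0.10, -0.12, -0.13 and -0.01 at 8 h, 0.33 and 0.35 with SEMA3E at 2 h, and -0.06 and -0.25 in control. The 2 SEMA3E 2 h arrays alone were high, and these also had the lowest raw signal of the 8, with 75th percentiles of 59.3 and 61.1. Any part that signal strength had in this was not tested. Rpl34, a protein of the large subunit, read 3.80, 3.79, 3.45 and 3.28 at 8 h, against 4.23 and 4.83 with SEMA3E at 2 h and 3.83 and 3.47 in control. Ndufa1, an accessory subunit of respiratory complex I, read 2.43, 2.12, 1.55 and 1.43 at 8 h, against 3.08 and 3.23 with SEMA3E at 2 h and 2.91 and 1.54 in control. For oxidative phosphorylation the median differences were -0.34 and -0.48 against SEMA3E at 2 h and 0.05 and -0.13 against control, for SEMA3E at 8 h and for cytochalasin D in that order. By array, this list's median deviation was 0.04, -0.05, -0.13 and -0.21 at 8 h, and 0.28 and 0.37 with SEMA3E at 2 h. The control arrays were split, with replicate 1 at 0.17, above all 8 h arrays, and replicate 2 at -0.25, below them.

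**Figure D5:**
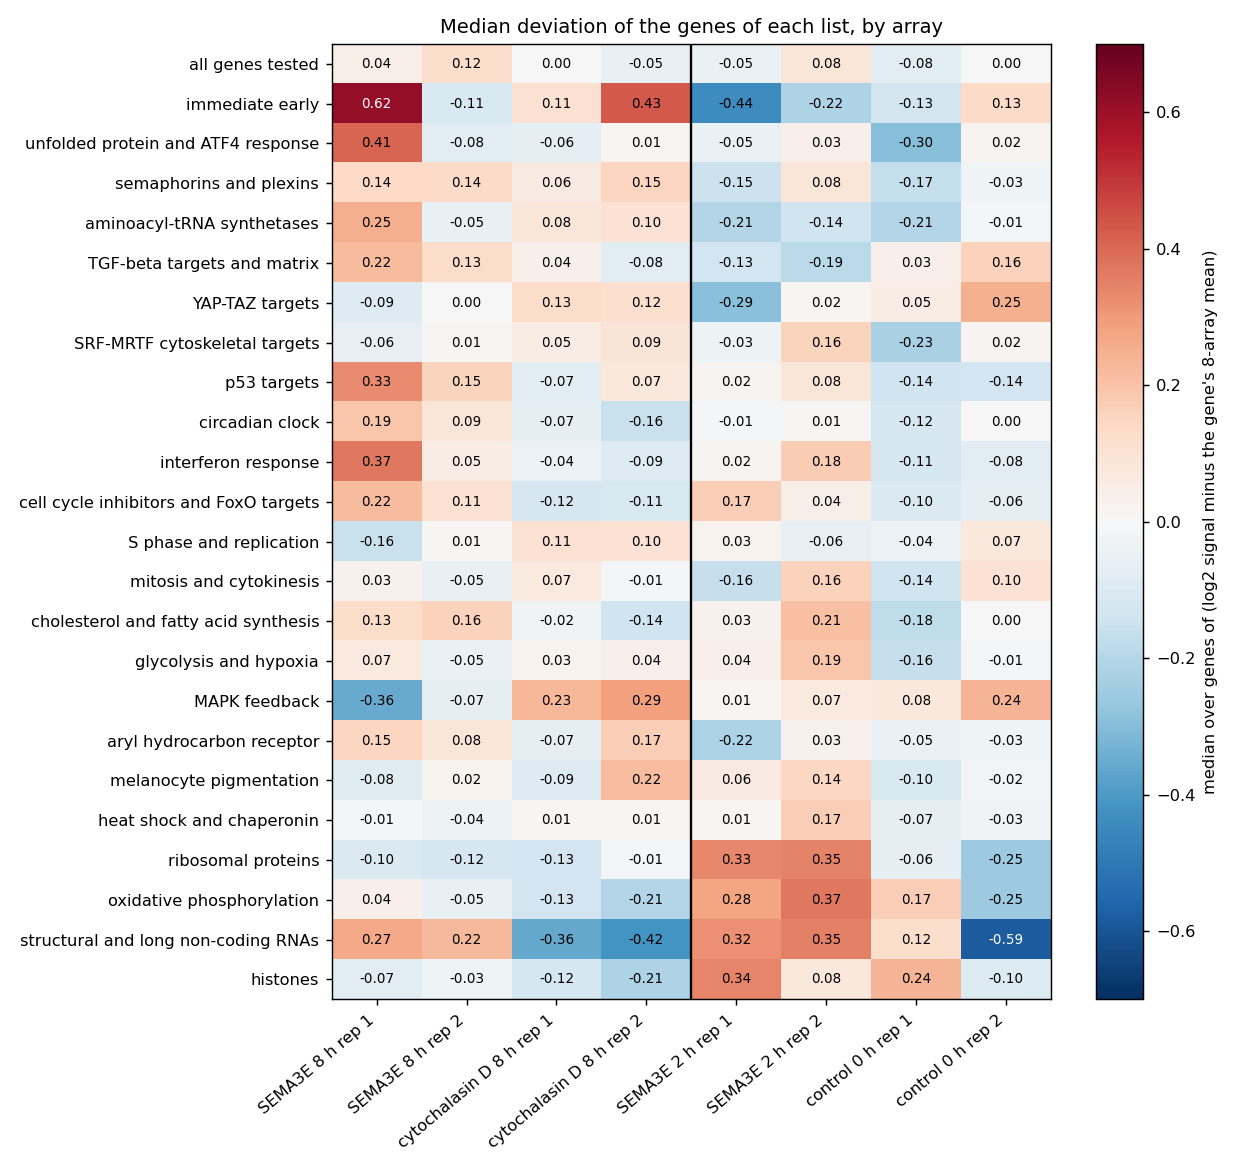
Median over the genes of each list of the log2 signal minus the gene's mean over 8 arrays, for each array, with the 4 arrays at 8 h left of the line and the lists ordered by their median difference between arms. Ribosomal protein genes lie between -0.25 and -0.01 on 6 arrays and reach 0.33 and 0.35 on those of SEMA3E at 2 h, and immediate early genes reach 0.62 on SEMA3E 8 h replicate 1.

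Histone genes and structural and long non-coding RNAs also lay lower in the means, and they differed within the arms. Of 14 histone genes 2 lay above 0 with a median of -0.26, and of 15 non-coding RNAs 5 did with a median of -0.26. An unadjusted p under 0.05 (limma) was found for 3 of the 14 and 1 of the 15, where 5.24% of all genes had one. H1f0, a linker histone of resting and differentiated cells, read -4.58, -3.48, -4.30 and -4.56 at 8 h, against -6.92 and -7.90 with SEMA3E at 2 h and -6.70 and -3.54 in control, and 2 of the 4 earlier arrays were above background. It differed by 2.04 ± 0.80 with all arrays, and by 0.48 with normexp. Without control replicate 2 it was called higher (adjusted p 0.0293), with 1 of the 3 earlier arrays left above background. H1f4, a linker histone of dividing cells, read -1.47 and -1.62 with SEMA3E at 8 h, -3.68 and -3.11 with cytochalasin D, 0.39 and 0.89 with SEMA3E at 2 h, and -1.67 and -2.22 in control. Its 8 h groups differed by 1.85 ± 0.34 (limma, unadjusted p 0.000762), and the control values lay between those of the 2 treatments at 8 h. H2ax, the histone variant phosphorylated at DNA breaks, differed by -0.70 ± 0.26, with control replicate 2 within the 8 h range. The non-coding RNAs had median deviations of 0.27 and 0.22 with SEMA3E at 8 h, -0.36 and -0.42 with cytochalasin D, 0.32 and 0.35 with SEMA3E at 2 h, and 0.12 and -0.59 in control. The lowest value was that of control replicate 2, next to those of cytochalasin D. Mir17hg, the host transcript of a cluster of growth-promoting microRNAs, differed by -0.55 ± 0.20. It was the 1 non-coding RNA of the 15 with separate arms, against 1.88% of all genes.

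The S phase and mitosis lists stood near the background. Of 37 genes of S phase 23 (62.2%) lay above 0 with a median of 0.04, and of 40 genes of mitosis 22 (55%) did with a median of 0.04. Over all genes 56.9% lay above 0, with a median of 0.06. An unadjusted p under 0.05 (limma) was found for 1 of the 37 and 2 of the 40, against 5.24% of all genes. Pcna, the sliding clamp of DNA polymerases, was the only gene of either list with separate arms, where 1.88% of all genes had them. It read 2.41, 2.19, 2.41 and 2.45 at 8 h and 2.96, 3.03, 2.80 and 2.53 earlier, a difference of -0.47 ± 0.18. Dlgap5, a spindle microtubule protein, read from -2.55 to -1.98 at 8 h and -3.61, -3.62, -3.52 and -1.99 earlier. It differed by 1.02 ± 0.37 with all arrays and by 1.42 ± 0.20 without control replicate 2 (limma, adjusted p 0.0343), with a second probe at 0.34. Of the 19 cell cycle inhibitors and FoxO targets 12 lay above 0 with a median of 0.04, and of the 24 p53 targets 17 did with a median of 0.10. Tob1, an inhibitor of proliferation, differed by -0.77 ± 0.30. Pink1, the mitochondrial quality kinase, had separate arms at 0.31 ± 0.18 (-0.0675 with the median of all probes as the scaling), and so did the p53 list's Bloc1s2 at 0.44 ± 0.26. Each was the 1 gene of its list with separate arms, of 19 and 24, against 1.88% of all genes.

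Lists tied to actin, growth factor signalling and cell density held no gene called with all arrays. Of the 30 SRF and MRTF targets 18 lay above 0 with a median of 0.12, of the 18 YAP and TAZ targets 12 did with 0.13, and of the 13 MAPK feedback genes 7 did with 0.01. In the same order, 2, 0 and 2 genes had an unadjusted p under 0.05 (limma), against 5.24% of all genes. The arms did not overlap in 2 of the first list, Cnn3 and Tpm3, 0 of the second and 1 of the third, Etv1, against 1.88% of all genes. Myh9, the heavy chain of non-muscle myosin, read 2.36 and 2.26 with SEMA3E at 8 h, 2.63 and 2.64 with cytochalasin D, 1.13 and 1.20 with SEMA3E at 2 h, and 0.75 and 2.44 in control. Control replicate 2 lay among the 8 h values, and its replicate was the lowest of all. The difference was 1.09 ± 0.34 with all arrays and 1.44 ± 0.21 without control replicate 2 (limma, adjusted p 0.0343). Itga5, the fibronectin receptor subunit, differed by 0.88 ± 0.34, and Axl, a receptor tyrosine kinase, by 0.55 ± 0.25. Cnn3, an actin-binding calponin, had separate arms at -0.37 ± 0.17. Etv1, an ETS factor downstream of ERK, read -2.27, -2.26, -2.27 and -2.35 at 8 h and -1.36, -0.34, -1.68 and -2.05 earlier, a difference of -0.93 ± 0.33. The 8 h values were nearly identical and the earlier ones spread widely. Spred2, an inhibitor of that pathway, read -6.40 and -6.39 with SEMA3E at 8 h, -7.89 and -9.42 with cytochalasin D, -5.48 and -4.92 with SEMA3E at 2 h, and -5.33 and -6.91 in control. It was above background on 2 of the 4 arrays at 8 h, and its difference was -1.87 ± 0.70, or -0.67 with normexp.

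Pigment genes and the receptors for semaphorins varied by single members. Of 30 pigmentation genes 12 lay above 0 with a median of -0.04, and 4 had an unadjusted p under 0.05 (limma), where 5.24% of all genes did. Rab27a and Mlph, which with a myosin tether melanosomes to actin, read from -1.49 to -0.48 and from 0.46 to 0.80 at 8 h. On the SEMA3E 2 h arrays Rab27a read -4.52 and -5.07 and Mlph -0.86 and -0.40. In control they read -1.29 and -1.31 for Rab27a and 0.07 and 0.45 for Mlph, so Rab27a stood apart only at 2 h, within the earlier arm. Their differences by time were 2.06 ± 0.86 and 0.77 ± 0.28, and a second probe of Rab27a gave 0.52. Rab32, which sorts cargo to melanosomes, had separate arms at -0.54 ± 0.20, as did Mlph in the other direction. This was 1 of the 30 genes in each direction, where 1.12% of all genes had separate arms higher at 8 h and 0.758% lower. Mitf, the master regulator of the lineage, read from 3.03 to 3.64 at 8 h and from 3.14 to 3.53 earlier, with other probes that differed by -2.47 to -0.13, and Dct, a melanin enzyme, from 4.42 to 4.80 at 8 h and from 4.20 to 4.70 earlier. Of 32 semaphorins, plexins and their coreceptors 24 lay above 0 with a median of 0.19, and none had an unadjusted p under 0.05 (limma), where 5.24% of all genes did. Plxnd1, the receptor of SEMA3E, read 2.99, 3.28, 3.39 and 3.69 at 8 h and 2.97, 3.17, 3.13 and 3.24 earlier, a difference of 0.21 ± 0.20 that was -0.16 with the median of all probes as the scaling. Sema3e itself was dim, between -8.08 and -7.09 on all 8 arrays. Actb, cytoplasmic actin, differed by -0.17 ± 0.22 (0.0327 with quantile normalization) and was higher on the SEMA3E 2 h arrays, at 5.40 and 5.24, than on the other 6.

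The remaining lists gave no call. Of the 29 genes of cholesterol and fatty acid synthesis 15 lay above 0 with a median of 0.04, of the 33 of glycolysis and hypoxia 18 did with 0.03, of the 22 heat shock and chaperonin genes 9 did with -0.04, and of the 7 aryl hydrocarbon receptor genes 3 did with -0.01. The 30 interferon response genes had 20 above 0 and a median of 0.07, and the 26 TGF-beta targets and matrix genes 17 and 0.16. Fdft1, squalene synthase, differed by 1.05 ± 0.39 with unadjusted p 0.0237, and Slc2a3, a glucose transporter, by 0.57 ± 0.25. Thbs1, a matrix glycoprotein, had arms that just failed to touch, with -5.61, -5.10, -5.35 and -5.33 at 8 h and -4.85, -4.54, -4.30 and -5.10 earlier. Cxcl10, an interferon-induced chemokine, had separate arms at -0.42 ± 0.21, while its other probe gave 0.71. Thbs1 and Cxcl10 were each the 1 gene of their list with separate arms, of 26 and 30, against 1.88% of all genes. Hspa8, the constitutive heat shock cognate, read from 1.76 to 2.38 at 8 h, against 0.94 and 0.75 with SEMA3E at 2 h and 1.40 and 2.44 in control. Control replicate 2 was the highest array, and the 2 other probes of the gene gave -0.28 and -0.16.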

How the data were processed

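RNA of B16 cells was hybridised to 8 Agilent 1-colour arrays, and the deposited scanner output holds an intensity per spot, extracted with Agilent Feature Extraction 11.5.1.1 per the file headers. The processed values that the authors deposited are also an intensity per probe name, with no log scale. How several spots of a name were combined is not given in the sources used here. Of 62976 spots on an array, 1439 were controls, and 0 were saturated.

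From these files, log2 of the background-corrected signal was taken and each array was scaled to its own 75th percentile, taken over the 18687 probes that all 8 arrays detected well above background. Spots marked as outliers were left out. A probe was kept where it was well above background on both arrays of at least 1 of the 4 groups and had a value on all 8, which 24667 probes met. A gene took its brightest probe, with names updated through RefSeq (27673 of 55698 probes matched). The arms were compared with limma 3.58.1 in R 4.3.3 (6 residual degrees of freedom, two-sided, Benjamini-Hochberg over 18073 genes, adjusted p threshold 0.05), and groups within a fit of 4 group means (4 residual degrees of freedom). Tables and figures used Python 3.11.15, numpy 2.4.6, pandas 2.3.3, matplotlib 3.10.9. On simulated data for these 18073 genes, 9 of 17873 unchanged genes were called.

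Samples were grouped by their labelled treatment and time. The number of arrays limits the precision, and p-values measure the spread between these arrays. The genes named were, with a proper symbol, separate arms and the higher arm above background on all 4 arrays, the 12 with the smallest p in each direction, since none was called, and the 6 with the widest gap; in each gene list the 3 with the smallest p; and Plxnd1, Sema3e, Actb, Mitf, Dct and Per2. Some genes that this rule names are not reported here. Genes named otherwise are marked as chosen after their values were seen, or are list members with separate arms. The comparison, members and lists were chosen with earlier results of these data known. Alternatives changed the background correction, scaling, filter, probe rule, model and the arrays included.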

Additional observations from a re-analysis of the deposited data

Results flagged for a closer look

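Among groups of 4 arrays, 15 of 218 values examined had 1 array far from the other 3 of its arm by Dixon's test, which chance gives in about 1 of 20 groups. Control replicate 2 was that array for Olfr635 at -8.81, Tmem144 at -1.73, Cnn3 at 2.60, Dlgap5 at -1.99 and Cct4, a chaperonin subunit, at 2.14. In Olfr635 it lay farther from the 8 h arm than the other earlier arrays, and in the other 4 genes nearer to it. SEMA3E 2 h replicate 2 was that array for Per1 at -1.46, Bloc1s2 at 1.13 and Plxna4, a semaphorin receptor, at -7.43. In the 8 h arm, SEMA3E replicate 1 stood apart in Hoxb9 at -1.36 and replicate 2 in Pcna at 2.19. Cytochalasin D replicate 2 stood apart in Vars at -0.99. It also passed Dixon's test in Etv1 at -2.35, where the other 3 of its arm nearly coincided at -2.27, -2.26 and -2.27, so that the distance was small.

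Of the measures of array quality, the net signal of the negative control spots was 41.6 on SEMA3E 8 h replicate 2, against 19.8 on the next array of its arm. The median coefficient of variation of the spike-in probes was 22.2% on SEMA3E 2 h replicate 2, against 8.18% on the next array of its arm, and the same array had 214 outlier spots, against 12.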

How the results depend on the processing

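The count of 0 called genes held under the alternatives run except with the median of all probes, where limma called 23 (1 higher and 22 lower, 10 of them among the 215), and when single arrays were left out, which gave 0 to 215. Genes with separate arms numbered 611 with normexp and quantile normalization and 474 to 3421 with 1 array left out. They numbered 5149 without the control group, 1495 without SEMA3E 2 h, 2666 without SEMA3E 8 h and 3053 without cytochalasin D, where fewer arrays make separation easier. Between the 8 h treatments, 0 genes in place of 1 were called with quantile normalization, with normexp and quantile normalization, with the 75th percentile of all probes, with no filter, with either stricter filter, with outlier spots kept, with the GC trend removed, with the replicate block and with any array left out, 7 with the median of all probes and 11 with the deposited table. Between SEMA3E at 2 h and control, 3437 were called with normexp, 18 with the median of all probes, 20 with the deposited table and 0 to 416 with 1 array left out (1 without control replicate 1 and 416 without SEMA3E 2 h replicate 1). The cause was not tested.

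With replicate number as a block, 0 genes were called by time and 952 had an unadjusted p under 0.05. The numbers share no stated source, the deviations of same-numbered arrays correlated at -0.15 to 0.14, and they were not taken as pairs. The unadjusted count ran from 314 to 4525 over the alternatives, the highest with array weights.

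Of 3099 values of the 104 named genes over 30 alternatives, 3074 kept their direction and 25 were reversed. Most of these genes were chosen for a small p or separate arms on these same arrays, which favours a kept direction. The count is therefore a description and no test of the directions. With normexp Olfr635 was -0.000221 and Ahrr -0.000538, and with normexp and quantile normalization Mitf was 0.0231. With the median of all probes Pink1 was -0.0675, Ahrr -0.0409, Plxnd1 -0.16 and Dct -0.23. With quantile normalization Actb was 0.0327. With the mean of probes Cxcl10 was 0.15 and Dct -0.0866. With the deposited table Tyr was -0.30, Sema3e 0.0191 and Dct -0.0824, and with the GC trend removed Sema3e was 0.00985. Without the SEMA3E 2 h group Rpl6 was 0.0396, Mlana 0.0384 and Actb 0.13. Without control Cyp1a1 was 0.0839 and Sema3e 0.12, and without SEMA3E 8 h Cyp1a1 was 0.30, Sema3e 0.21 and Mitf 0.0724. With 1 array left out Sema3e ran from -0.18 to 0.17, at 0.11 without control replicate 2 and 0.04 without SEMA3E 2 h replicate 1.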
